A study of Mus musculus with 16 samples.

Results

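The enzymes that remove superoxide and peroxides were followed in the hippocampus of mice of the SAM/P-8 and SAM/R-1 lines through 10 genes: Sod1, Sod2 and Sod3 (superoxide dismutases), Cat (catalase), Gpx1 and Gpx4 (glutathione peroxidases), and Prdx1, Prdx2, Prdx5 and Prdx6 (peroxiredoxins). They were chosen by name, among 17178 named genes on the array, as the genes whose RefSeq transcript carries a non-control probe. Together they had 14 probes on 23 spots. Of these, 13 probes of 9 genes were bright enough to be tested, and the single Sod3 probe was not.

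SAM, the senescence-accelerated mouse, is a set of inbred lines selected from AKR/J stock, in which the P lines are senescence-prone and the R lines senescence-resistant. Male mice were 8 weeks old at the start and ate CE-2, a rodent chow, for 8 weeks, either alone (control) or with 0.1% coral calcium hydride (CCH). The 4 groups were SAM/P-8 control, SAM/P-8 CCH, SAM/R-1 control and SAM/R-1 CCH, with 4 one-colour Agilent arrays each. Whether the replicates of a group are separate animals is not in the labels, so a p-value here measures the spread between samples that may be technical. The arrays of a group shared 1 slide, with no other group on it, and an effect of the slide cannot be told apart from that of the group.

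Superoxide dismutases turn superoxide into hydrogen peroxide. Catalase, in peroxisomes, splits hydrogen peroxide into water and oxygen, while glutathione peroxidases reduce peroxides with glutathione and most peroxiredoxins do so with thioredoxin. Neurons depend on this relay because their high oxygen use yields superoxide and their membranes are rich in lipids that peroxides attack.

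The promoters of 8 of the 10 genes were in the RefSeq table used (GRCm38.p6), as windows of 300 bases from 250 before to 50 after the start of the gene. They were searched on both strands for TGACNNNGC, the core of the antioxidant response element. The motif was in 2 of the 8, Prdx1 and Sod1, while 12.4% of 32851 windows and 14.0% of 27025 genes held it, so a match is common and is given as a description. Gclm, the modifier subunit of glutamate-cysteine ligase, was added by name as the only gene outside the members. It had the largest strain difference of the other lists described further on, and those lists were chosen with earlier results known. The promoters of the other genes described there are not shown, and the part of the motif in any difference was not tested. The stretches around the Prdx1 and Sod1 matches follow, together with that of Gclm. All are on the plus strand of the genome, 5′ to 3′. The capitals mark the match, which reads as the motif on the opposite strand.
Prdx1: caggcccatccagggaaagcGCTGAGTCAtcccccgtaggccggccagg
Sod1: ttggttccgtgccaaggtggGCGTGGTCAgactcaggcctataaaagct
Gclm: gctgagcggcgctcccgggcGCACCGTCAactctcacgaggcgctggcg
The Prdx1 stretch is chr4:116685446-116685494, with the match 133 to 125 bases before the start of the gene. The Sod1 stretch is chr16:90220686-90220734, with the match 56 to 48 bases before the start. The Gclm stretch is chr3:122245403-122245451, with the match 134 to 126 bases before the start.

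Of 43379 non-control spots, each array had 28920 to 33333 well above background, and replicates correlated between 0.987 and 0.997. Precision is limited by the number of arrays. All 11 hippocampal neuron markers tested were well above background on 16 of 16 arrays. A marker score is the mean, over a list, of each gene's value minus its mean over all arrays. Replicate 4 of SAM/P-8 CCH had a striatum score of 3.82, against -0.62 to 0.23 in the rest of its group. Replicates 1 and 2 of SAM/P-8 control had red blood cell scores of 1.37 and 2.05, against -0.82 to 0.22 on the other arrays. The choroid plexus score was low on single arrays in every group. It was -1.668 on SAM/P-8 control replicate 4, -2.421 on SAM/P-8 CCH replicate 3 and -1.196 on SAM/R-1 control replicate 4. On SAM/R-1 CCH replicates 2 and 3 it was -2.239 and -1.815, and it was positive on every other array. In bulk tissue, fewer cells of a type and less RNA per cell cannot be told apart.

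Values are log2 of the processed signal minus the 75th percentile of the array, so they compare arrays within a probe and not one probe with another. A strain difference is SAM/P-8 minus SAM/R-1, and a CCH effect is CCH minus control. A gene was called when limma's p-value, adjusted by Benjamini-Hochberg over all probes kept, was under 0.05. The gene was represented by its brightest probe unless another probe is named.

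No member was called in the strain difference on the control diet (0 of 9, against 12.8% of all genes), nor on the CCH diet (0 of 9, against 12.6%). The same held for the CCH effect in SAM/P-8 (0 of 9, against 0.78%) and in SAM/R-1 (0 of 9, against 0.104%). It also held for the CCH effect averaged over the strains (0 of 9, against 4.15%) and for the strain by diet interaction (0 of 9, against 0.134%). The shares for CCH depend on single arrays: over all probes the calls were 243 in SAM/P-8, 33 in SAM/R-1 and 1207 averaged, and with 1 array left out they ran from 72 to 437, from 2 to 45 and from 303 to 2118. At an unadjusted p under 0.05, limma gave Prdx1 for the strain on the control diet, Prdx1, Prdx2 and Sod2 on the CCH diet, Prdx2 for CCH in SAM/P-8, and Prdx2 and Sod1 for CCH averaged over the strains. These are 1, 3, 1 and 2 of 9 members, where 26.4%, 27.3%, 18.5% and 24.2% of all genes passed. No member passed for CCH in SAM/R-1 or for the interaction, where 11.2% and 4.82% of all genes did. A miss does not show that a gene did not differ: the 95% intervals of the 9 members reached 1.30-fold and 1.31-fold for the strain on the 2 diets, and 1.20-fold for CCH in SAM/P-8 and 1.22-fold in SAM/R-1. All 4 of those outer bounds belonged to Gpx1.

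The median difference of the 9 genes was -0.05 for the strain on the control diet and -0.04 on the CCH diet, beside -0.01 and -0.02 over all genes. It was -0.02 for CCH in SAM/P-8 and -0.03 in SAM/R-1, beside -0.02 and -0.02 over all genes. On each diet the strain difference was negative in 6 of the 9 and positive in 3, which were Sod2, Gpx1 and Prdx1 on both diets. With quantile normalization between arrays, the small negative strain differences of Sod1, Prdx5 and Prdx6 on the CCH diet became positive.

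**Figure D1:**
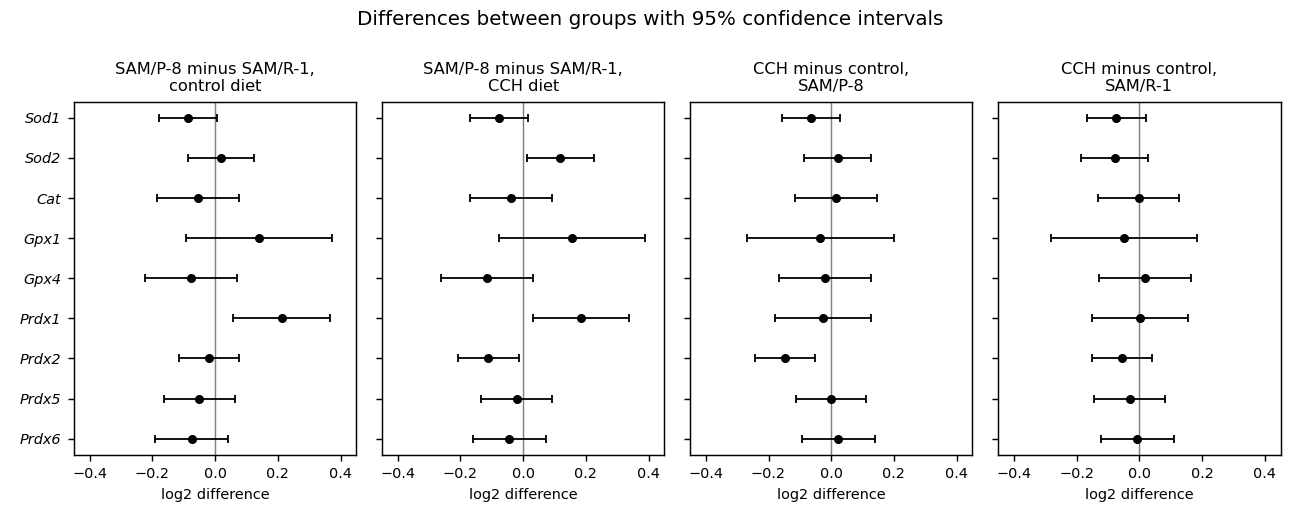
Difference in log2 signal (horizontal axis) of the brightest probe of each of the 9 tested genes for the strain and diet comparisons, with points for the estimates and bars for the 95% limma intervals. Prdx1 lies to the right of 0 in both strain comparisons, at 0.21 on the control diet and 0.18 on the CCH diet, and Prdx2 lies lowest for CCH in SAM/P-8, at -0.15.

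Prdx1, an abundant cytosolic peroxiredoxin, was the member with the largest difference between the lines. It measured 2.52, 2.75, 2.56 and 2.62 in SAM/P-8 control (replicates 1 to 4, the order used throughout) and 2.64, 2.59, 2.43 and 2.68 in SAM/P-8 CCH. The values were 2.54, 2.45, 2.28 and 2.32 in SAM/R-1 control and 2.39, 2.45, 2.41 and 2.35 in SAM/R-1 CCH. SAM/P-8 was the higher line on both diets, but the groups overlapped: SAM/P-8 control replicate 1 lay below SAM/R-1 control replicate 1, and SAM/P-8 CCH replicate 3 lay below SAM/R-1 CCH replicate 2. The strain difference was 0.21 ± 0.07 (SE, n = 4 and 4) on the control diet (limma adjusted p = 0.0655, 1.16-fold) and 0.18 ± 0.07 on the CCH diet (limma adjusted p = 0.107, 1.14-fold). On the control diet it passed the threshold when SAM/R-1 control replicate 1 was left out (0.26, adjusted p = 0.034) or without SAM/P-8 CCH replicate 3, which left the difference at 0.21 and moved the adjusted p to 0.0487. Without that array the difference on the CCH diet was 0.24 (adjusted p = 0.0454). SAM/P-8 CCH replicate 3 also had the lowest choroid plexus score, -2.421, whose part in the Prdx1 value was not tested.

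The strain difference averaged over both diets, a comparison added after the separate ones had been seen, was 0.20 ± 0.05 for Prdx1 (SE, n = 8 and 8, limma adjusted p = 0.0102, 95% interval 0.09 to 0.31, 1.15-fold). Prdx1 was the 1 of 9 members called there, where 26% of all genes were called and 11.7% were called higher in SAM/P-8. The CCH effect on Prdx1 was -0.03 ± 0.07 in SAM/P-8 and 0.00 ± 0.07 in SAM/R-1, with intervals of -0.18 to 0.13 and -0.15 to 0.16. Markers of 3 other cell types moved with this comparison. Averaged over the diets, 11 of 12 tested markers of endothelium and pericytes were called higher in SAM/P-8 (median 0.52), as were 8 of 12 of meninges and fibroblasts (median 0.64) and 6 of 12 of microglia (median 0.15). On every array 11, 12 and 12 markers of these lists were well above background. In SAM/P-8 the endothelial score was 0.12 to 0.60 on the control diet and 0.21 to 0.53 on the CCH diet, and in SAM/R-1 it was -0.68 to -0.31 and -0.35 to -0.03. The meningeal score was -0.29 to 0.82 and 0.14 to 0.80 in SAM/P-8, against -0.67 to 0.02 and -0.29 to -0.20 in SAM/R-1. The microglia score was -0.07 to 0.17 and 0.01 to 0.16 in SAM/P-8, against -0.08 to 0.05 and -0.18 to -0.02 in SAM/R-1. Their part in the Prdx1 difference was not tested.

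**Figure D2:**
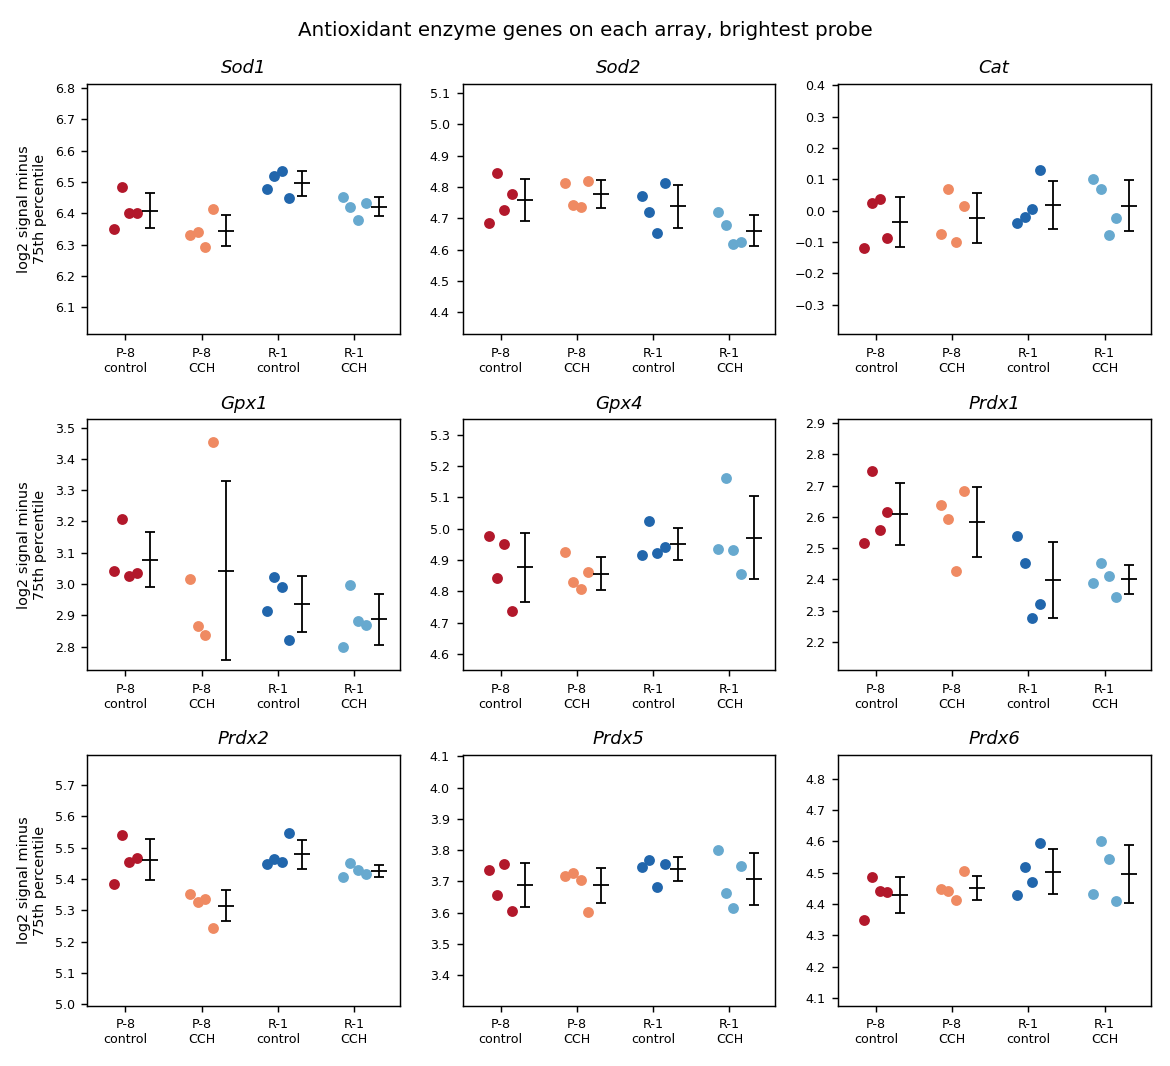
Log2 signal minus the 75th percentile of the array (vertical axis) of the brightest probe of each tested gene on the 16 arrays, in the 4 strain and diet groups, with bars for the mean ± SD of 4 arrays. Most groups overlap, and the single Gpx1 point at 3.45 in SAM/P-8 CCH stands above the other 3 arrays of its group.

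Prdx2, a cytosolic peroxiredoxin that is plentiful in neurons and in red blood cells, was measured by 3 probes. The brightest, A_51_P147207, was printed on 10 spots, whose values on an array differed with an SD of 0.02 to 0.05. It measured 5.38, 5.54, 5.45 and 5.47 in SAM/P-8 control and 5.35, 5.33, 5.34 and 5.24 in SAM/P-8 CCH. In SAM/R-1 it measured 5.45, 5.47, 5.46 and 5.55 on the control diet and 5.41, 5.45, 5.43 and 5.42 on the CCH diet. All 4 SAM/P-8 CCH arrays lay below all other arrays, so that the order of the group means was SAM/R-1 control, SAM/P-8 control, SAM/R-1 CCH and SAM/P-8 CCH, and apart from the lowest group all neighbours in this order overlapped.

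The CCH effect on this Prdx2 probe was -0.15 ± 0.04 in SAM/P-8 (SE, n = 4 and 4, limma adjusted p = 0.112, 1.11-fold, interval -0.24 to -0.05) and -0.05 ± 0.04 in SAM/R-1 (limma adjusted p = 0.696, interval -0.15 to 0.04). The difference between the 2 effects was -0.09 ± 0.06 (limma adjusted p = 0.946). Prdx2 was the 1 of 9 members whose groups did not overlap in the SAM/P-8 comparison, against 9.64% of all genes, and in SAM/R-1 none of the 9 did so, against 9.86%. With quantile normalization the effect in SAM/P-8 was -0.03 (adjusted p = 0.777). Averaged over the strains the CCH effect was -0.10 ± 0.03 (limma adjusted p = 0.0822). Leaving out SAM/P-8 control replicate 1 gave -0.11 (adjusted p = 0.0438).

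Markers of red blood cells and of neurons also had negative CCH effects in SAM/P-8. The red blood cell list held 5 tested genes, all well above background on every array. Their CCH effects in SAM/P-8 were all negative, from -1.86 to -0.16 with a median of -1.10, and none was called. The lowest was Slc4a1, the anion exchanger of the red cell membrane, whose groups did not overlap there. It was called lower with CCH averaged over the strains (-1.43 ± 0.37, limma adjusted p = 0.0453), the 1 of 5 in its list. SAM/P-8 control replicates 1 and 2, with the highest red blood cell scores, were the lowest and the highest Prdx2 arrays of their group, and without both the effect of CCH in this line was -0.15 (adjusted p = 0.236). Of the hippocampal neuron markers, 11 of 11 had a negative CCH effect in SAM/P-8 (median -0.33), and none was called. Over all genes, 42.87% had a positive CCH effect in this line. Zbtb20 and Camk2a were called lower with CCH averaged over the strains, at -0.25 ± 0.06 and -0.23 ± 0.06 (limma adjusted p = 0.0395 and 0.0471). They were 2 of 11, where 4.15% of all genes were called, and Prox1 had the opposite sign there, at 0.03. The neuron score was 0.07 to 0.29 in SAM/P-8 control and -0.41 to 0.15 in SAM/P-8 CCH. Its lowest array, SAM/P-8 CCH replicate 4, was also the lowest Prdx2 array and the one with the striatum score of 3.82. On SAM/P-8 CCH replicates 1 to 3 the neuron score was -0.13, 0.15 and 0.08, so the lower group mean rests much on replicate 4. With any 1 array left out, the CCH effect on Prdx2 in SAM/P-8 ran from -0.17 to -0.12. The mean neuron score was -0.08 in SAM/P-8 CCH and -0.11 in SAM/R-1 CCH, where the Prdx2 means were 5.31 and 5.43. Slc4a1, Zbtb20 and Camk2a were named after their values were seen, and the part of either marker list in the Prdx2 difference was not tested.

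For the other 2 Prdx2 probes the CCH effect was also negative in each strain, without passing the threshold. A_52_P550034 gave -0.06 in SAM/P-8 and -0.02 in SAM/R-1, and A_52_P893440 gave -0.11 ± 0.06 and -0.13 ± 0.06. A_52_P893440 measured 2.61, 2.85, 2.69 and 2.71 in SAM/P-8 control, 2.56, 2.72, 2.65 and 2.52 in SAM/P-8 CCH, 2.59, 2.65, 2.60 and 2.60 in SAM/R-1 control, and 2.45, 2.50, 2.46 and 2.49 in SAM/R-1 CCH. On the CCH diet all of its SAM/P-8 values lay above all of its SAM/R-1 values, whereas for the brightest probe they all lay below.

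The Prdx2 probes therefore disagreed on the strain. By A_52_P550034 the strain difference was -0.02 on the control diet, -0.06 on the CCH diet and -0.04 averaged over the diets. It was not called, and its sign was that of the brightest probe. On the CCH diet the strain difference was -0.11 ± 0.04 by A_51_P147207 (limma adjusted p = 0.121) and 0.13 ± 0.06 by A_52_P893440 (limma adjusted p = 0.132). Averaged over the diets the brightest probe gave -0.06 ± 0.03 (limma adjusted p = 0.15), and A_52_P893440 passed the threshold with 0.12 ± 0.04 (limma adjusted p = 0.036, beside 26.8% of all probes called). The gap between the 2 probes within an array removes whatever they share. It ran from 2.69 to 2.78 in SAM/P-8 control, from 2.61 to 2.80 in SAM/P-8 CCH, from 2.82 to 2.95 in SAM/R-1 control and from 2.92 to 2.97 in SAM/R-1 CCH, so every SAM/R-1 array lay above every SAM/P-8 array. This shows an unequal difference between the probes, not which of them reflects Prdx2. With quantile normalization the strain difference on the CCH diet was 0.00 by the brightest probe and 0.18 by A_52_P893440 (adjusted p = 0.0331). The call of A_52_P893440 averaged over the diets held with quantile normalization (0.14, limma adjusted p = 0.00965). It was lost with another background correction, normexp (0.17, limma adjusted p = 0.0707).

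**Figure D3:**
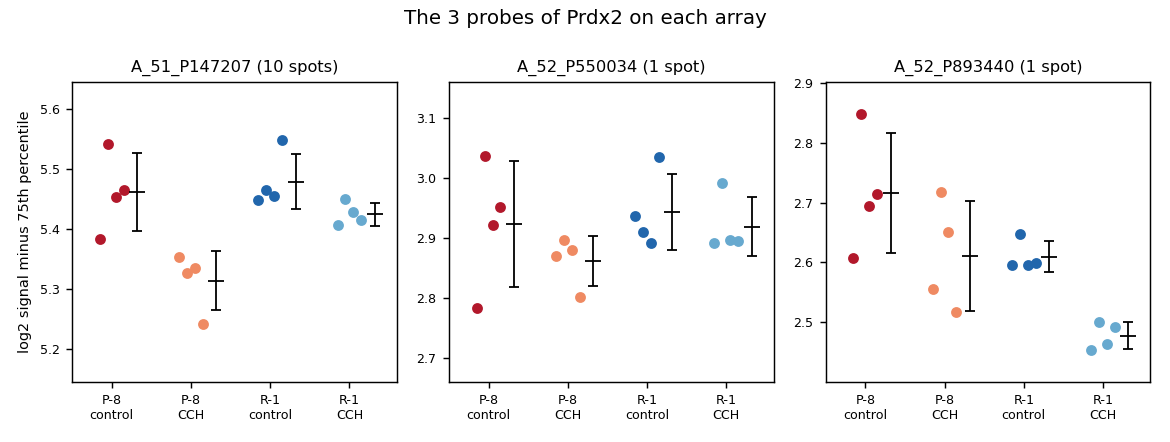
Log2 signal minus the 75th percentile of the array (vertical axis) of the 3 Prdx2 probes on the 16 arrays, by strain and diet group, with bars for the mean ± SD of 4 arrays. On the CCH diet the SAM/P-8 arrays are below the SAM/R-1 arrays for A_51_P147207 and above them for A_52_P893440.

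Gpx1, the main cytosolic glutathione peroxidase and a selenium enzyme, had the widest spread within groups (pooled SD 0.161, against a median of 0.111 over all genes). It measured 3.04, 3.21, 3.02 and 3.04 in SAM/P-8 control and 3.02, 2.87, 2.84 and 3.45 in SAM/P-8 CCH. In SAM/R-1 the values were 2.91, 3.02, 2.99 and 2.82 on the control diet and 2.80, 3.00, 2.88 and 2.87 on the CCH diet. On the control diet the SAM/P-8 arrays all lay above the SAM/R-1 arrays by a narrow margin, the 1 of 9 members with no overlap there, against 18.9% of all genes.

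The Gpx1 strain difference on the control diet was 0.14 ± 0.11 (SE, n = 4 and 4, limma adjusted p = 0.446, interval -0.09 to 0.37), and on the CCH diet it was 0.16 ± 0.11 (limma adjusted p = 0.378). The latter rests on SAM/P-8 CCH replicate 4, and without it the difference on the CCH diet was 0.02 (adjusted p = 0.9). In SAM/P-8 the effect of CCH on Gpx1 was -0.03 ± 0.11 with this array and -0.17 (adjusted p = 0.259) without it. This is the array with the striatum score of 3.82, where 8 of the 10 striatal genes tested were well above background on every array of the study, and it also had the highest oligodendrocyte score, 0.61. The part of either in the Gpx1 value was not tested.

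Gpx4, which reduces lipid peroxides inside membranes, ran from 4.74 to 4.98 in SAM/P-8 control, from 4.81 to 4.93 in SAM/P-8 CCH, from 4.92 to 5.03 in SAM/R-1 control and from 4.86 to 5.16 in SAM/R-1 CCH. The group means followed the order SAM/R-1 CCH, SAM/R-1 control, SAM/P-8 control and SAM/P-8 CCH, and every pair of neighbours overlapped. The largest of its 4 separate differences was the strain difference on the CCH diet, -0.11 ± 0.07 (limma adjusted p = 0.299, interval -0.26 to 0.03).

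Sod2, the manganese enzyme of mitochondria, measured 4.69, 4.84, 4.73 and 4.78 in SAM/P-8 control and 4.81, 4.74, 4.74 and 4.82 in SAM/P-8 CCH. In SAM/R-1 it measured 4.77, 4.72, 4.65 and 4.81 on the control diet and 4.72, 4.68, 4.62 and 4.62 on the CCH diet. The lines overlapped on the control diet and did not on the CCH diet, where SAM/P-8 was higher, and Sod2 and Prdx2 were the 2 of 9 members without overlap there, against 20.6% of all genes. The strain difference was 0.02 ± 0.05 on the control diet (limma adjusted p = 0.852) and 0.12 ± 0.05 on the CCH diet (limma adjusted p = 0.134, interval 0.01 to 0.22). With quantile normalization the latter was 0.19 (adjusted p = 0.0258). The interaction, 0.10 ± 0.07, had a limma adjusted p of 0.947.

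Sod1, the copper and zinc enzyme of the cytosol, measured 6.35, 6.49, 6.40 and 6.40 in SAM/P-8 control and 6.33, 6.34, 6.29 and 6.41 in SAM/P-8 CCH. In SAM/R-1 it measured 6.48, 6.52, 6.53 and 6.45 on the control diet and 6.45, 6.42, 6.38 and 6.43 on the CCH diet. SAM/R-1 control was highest and SAM/P-8 CCH lowest, and the strains and the diets overlapped in each of the 4 separate comparisons. The strain difference averaged over the diets was -0.08 ± 0.03 (limma adjusted p = 0.0645). It passed without SAM/P-8 CCH replicate 4 (-0.09, adjusted p = 0.0362) or with SAM/P-8 control replicate 2 left out (-0.09, adjusted p = 0.0397), and with quantile normalization it was 0.01. The CCH effect averaged over the strains was -0.07 ± 0.03 (limma adjusted p = 0.195).

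Sod3, the secreted superoxide dismutase, was not well above background on any control-diet array and was so on 1 of 4 SAM/P-8 CCH and 2 of 4 SAM/R-1 CCH arrays. Its processed signal ran from 7.12 to 37.4 units over the 16 arrays, and no difference is given for it.

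Catalase, Prdx5 and Prdx6 varied least between the group means, though not within the groups. Cat ran from -0.12 to 0.04 in SAM/P-8 control, from -0.10 to 0.07 in SAM/P-8 CCH, from -0.04 to 0.13 in SAM/R-1 control and from -0.08 to 0.10 in SAM/R-1 CCH, with all groups overlapping. Its CCH effects were 0.01 ± 0.06 in SAM/P-8 (interval -0.12 to 0.14) and 0.00 ± 0.06 in SAM/R-1 (interval -0.13 to 0.13).

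Prdx5, found in mitochondria, peroxisomes and cytosol, had group means of 3.69 ± 0.07, 3.69 ± 0.06, 3.74 ± 0.04 and 3.71 ± 0.08 (SD, n = 4) in SAM/P-8 control, SAM/P-8 CCH, SAM/R-1 control and SAM/R-1 CCH. The intervals of its strain difference were -0.16 to 0.06 on the control diet and -0.13 to 0.09 on the CCH diet.

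Prdx6, the peroxiredoxin that works with glutathione and is strong in astrocytes, had means of 4.43 ± 0.06, 4.45 ± 0.04, 4.50 ± 0.07 and 4.50 ± 0.09 (SD, n = 4) in the same order. Its second probe, A_52_P540855, had means of 0.81, 0.87, 0.90 and 0.86, also with overlapping groups. The remaining probe, A_52_P388359, was well above background on 10 of 16 arrays, at 9.93 to 73.2 units of signal, and is too dim to bear on the gene.

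The range of the 4 group means sets the members among all genes without a test. It was 0.21 for Prdx1, and 51.1% of all genes had a narrower one. The ranges were 0.19 for Gpx1 (44.9% narrower), 0.17 for Prdx2 (36.5%), 0.15 for Sod1 (31.8%), 0.12 for Sod2 (20.2%) and 0.11 for Gpx4 (18.8%). For Prdx6, Cat and Prdx5 it was 0.07, 0.06 and 0.05, with 6.47%, 3.2% and 2.74% of genes narrower. The median over all genes was 0.21, so 8 of the 9 members lay in the narrower part. Noise enters this measure: the pooled SD within groups was 0.05 to 0.10 for the members other than Gpx1.

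**Figure D4:**
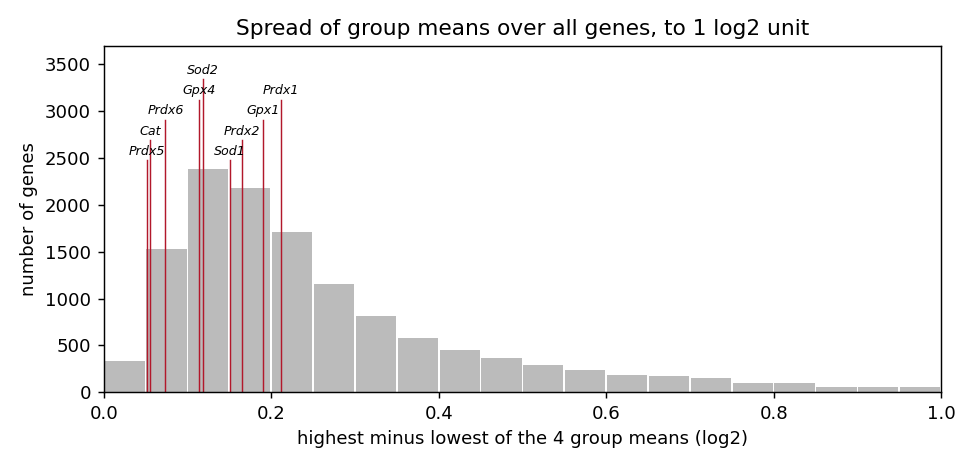
Distribution over all tested genes of the range of the 4 group means in log2 units (horizontal axis, drawn to 1), with the number of genes on the vertical axis and lines for the 9 tested members. Prdx1 at 0.21 lies at the median of all genes and the other 8 lie below it, down to Prdx5 at 0.05.

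For the 3 members with the widest range of group means, the genes most alike over the 16 arrays were ranked by Pearson's r. The search covered 13449 other genes and is a description. For Prdx1 they were Ninj2 (r = 0.92), Hat1 (0.91) and Dhx15 (0.90). For Prdx2 they were Exoc5 (0.98), Ndufs5 (0.96) and Mrpl28 (0.94). For Gpx1 they were Cbr3 (0.91), Akt2 (0.89) and Abat (0.86), and without SAM/P-8 CCH replicate 4 these fell to 0.80, 0.73 and 0.64. The arrays share strain, slide and scaling, and the highest of many correlations is high by selection.

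The enzymes around the members were read from 7 further lists with 91 genes on the array, 83 of them tested. None of the 83 was called for CCH in SAM/P-8, for CCH in SAM/R-1 or for the interaction. The strain difference called 8 on the control diet (9.64%, against 12.8% of all genes) and 6 on the CCH diet (7.23%, against 12.6%), and CCH averaged over the strains called 7 (8.43%, against 4.15%). The called genes named here kept their sign with quantile normalization, with another background correction and in the authors' deposited table. Only the sign was compared, so this does not show that the calls held. Over all probes, the calls for CCH averaged over the strains fell from 1207 to 111 with the other background correction.

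Glutathione synthesis and reduction held the largest of these differences. Gclm, whose product limits glutathione synthesis together with its catalytic partner, was 0.59 ± 0.08 higher in SAM/P-8 on the control diet (limma adjusted p = 1.019e-04, 1.51-fold) and 0.65 ± 0.08 on the CCH diet (limma adjusted p = 4.613e-05, 1.57-fold). Gsr, which regenerates glutathione for the peroxidases, was lower in SAM/P-8 on the control diet by -0.24 ± 0.07 (limma adjusted p = 0.0314). Those were 2 of 12 tested genes of the list on the control diet and 1 of 12 on the CCH diet, with list medians of -0.05 and -0.02.

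Among the other peroxidases and peroxiredoxins, 0 of 6 were called for the strain on the control diet and 1 of 6 on the CCH diet. It was Gpx2, a glutathione peroxidase best known from the gut, at -0.44 ± 0.11 (limma adjusted p = 0.0162). In the thioredoxin and glutaredoxin list, which supplies electrons to the peroxiredoxins, the 1 gene called in any of the 6 comparisons was Glrx3, lower with CCH averaged over the strains by -0.16 ± 0.04 (limma adjusted p = 0.0485).

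Genes for metal and selenium supply matter here because Gpx1 and Gpx4 carry selenocysteine. For the strain, 1 of 17 was called on each diet, both lower in SAM/P-8. They were Trnau1ap, a partner of the selenocysteine tRNA, at -0.19 ± 0.04 on the control diet (limma adjusted p = 0.00412), and Sephs1 at -0.29 ± 0.09 on the CCH diet (limma adjusted p = 0.0478), where its other probe gave -0.08. CCH averaged over the strains called 2 of 17, both lower: Eefsec, the elongation factor for selenocysteine (-0.17 ± 0.04, limma adjusted p = 0.0347), and Scly, which frees selenium from selenocysteine (-0.16 ± 0.04, limma adjusted p = 0.0379). Msrb1, a selenium-containing methionine sulfoxide reductase, was lower by -0.18 ± 0.04 in the same comparison (limma adjusted p = 0.0249), the 1 of 4 in its list.

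Of 9 tested genes that produce superoxide or peroxide, 1 was called for CCH averaged over the strains. It was Xdh, xanthine dehydrogenase, which was higher with CCH (0.48 ± 0.12, limma adjusted p = 0.0366).

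Peroxisome assembly, which houses catalase, had 4 of 19 genes called for the strain on the control diet and 3 of 19 on the CCH diet, in both directions. On the control diet Pex2 (-0.52) was among those lower in SAM/P-8, and Pex7 (0.21) and Pex26 (0.24) were higher. On the CCH diet Pex7 (0.21) and Pex26 (0.26) were higher and Pex16 (-0.23) was lower. CCH averaged over the strains called 2 of 19, Pex16 lower (-0.21) and Pex26 higher (0.16), while Cat itself was called in none of the 6.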

How the data were processed

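Hippocampal RNA of 16 samples was measured on one-colour arrays. The deposited files hold each spot's processed signal, an intensity, made per the file headers with Agilent Feature Extraction 9.5.3.1. They also hold median signal and local background, likewise intensities, and flags of kind other than a measurement, per the file headers. The authors' deposited table is on a log2 scale centred per probe, and served as an alternative.

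Here, log2 of the processed signal minus the array's 75th percentile was averaged over spots of a probe. Control spots and 187 non-uniform spots were left out, and no member spot was saturated. Of 41174 probes, 29007 passed the filter, which asks that 4 of 4 arrays in some group read the probe well above background. Names came through RefSeq accessions (GRCm38.p6) for 24844 probes. The array header names another build, so no gene positions from it are printed. A gene's brightest kept probe represents it (13458 genes).

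limma 3.58.1 in R 4.3.3 fitted 4 group means over 16 arrays (12 residual degrees of freedom, prior 2.32), and was tested on simulated data. The 6 contrasts of strain and diet were planned, and the strain difference averaged over diets was chosen after seeing the data. Groups came from the labels. Members and lists were chosen with earlier results of these data known. All members are described. Of each other list, called genes are named, at most 4 per contrast by smallest p, and the 3 genes most like each of the 3 members with the widest range of group means. Some genes under this rule are not reported here. Alternatives were quantile normalization, normexp background correction (offset 50) on median signal and background, the authors' table, filters, the compared groups only, a replicate block, array weights, the mean of a gene's probes, and each array left out. Leaving out the 2 haemoglobin-rich arrays was added after seeing the data.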

Additional observations from a re-analysis of the deposited data

Results flagged for a closer look

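Of 56 sets of 4 arrays (14 probes in 4 groups), 4 held an array far from the other 3 by Dixon's criterion, and chance alone gives about 1 in 20. Gpx1 in SAM/P-8 control was 3.21 on replicate 2 and 3.02 to 3.04 on the others. The brightest Prdx2 probe in SAM/R-1 control was 5.55 on replicate 4 and 5.45 to 5.47 on the others. The Prdx2 probe A_52_P550034 in SAM/R-1 CCH was 2.99 on replicate 2 and 2.89 to 2.90 on the others. The Prdx2 probe A_52_P893440 in SAM/R-1 control was 2.65 on replicate 2 and 2.59 to 2.60 on the others. The Gpx1 value of 3.45 on SAM/P-8 CCH replicate 4 did not meet the criterion, because the other 3 arrays of that group were spread.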

How the results depend on the processing

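Over 26 alternatives, 16 of which leave out 1 array, 1611 differences of member genes were recomputed from the brightest probe or the probe mean. Of these, 1549 kept their side of the threshold and their value within the error, 52 moved further, 10 passed the threshold anew, 0 lost a call and 0 called values changed sign, while 128 uncalled ones did. Prdx1 averaged over the diets was called in each of its alternatives (0.18 to 0.22, adjusted p 0.00427 to 0.0329). With array weights, CCH averaged over the strains called 1 member (Prdx2) and the averaged strain difference 2 (Prdx1 and Sod1). With quantile normalization the strain difference on the CCH diet called 1 (Sod2) and the averaged one 2 (Prdx1 and Sod2). With 1 array left out the counts ran from 0 to 1 for the strain on the control diet, from 0 to 1 on the CCH diet, from 0 to 1 for CCH averaged over the strains and from 1 to 2 for the averaged strain difference, and were 0 otherwise. The causes were not tested. The replicate block changed no call, with 0 members called in each of the 6 planned comparisons and 1 in the averaged strain difference (Prdx1, adjusted p = 0.0108). The replicate number equals the position of the array on its slide on 16 of 16 arrays. Deviations of same-numbered arrays correlated from -0.25 to 0.30, and those of other numbers in other groups from -0.335 to 0.37. Only 3 of 16 arrays correlated best with their own number. No pairing by number was seen, which does not exclude one. Counts over all probes moved by over 1.5 times in places. With normexp they were 961 and 841 for the strain on the control and CCH diets (3997 and 3903 in the report's fit), 0 for CCH in each strain (243 and 33), 111 for CCH averaged (1207), 0 for the interaction (50) and 2255 for the averaged strain difference (7764). CCH in SAM/P-8 gave 138 with quantile normalization, 154 with no filter, 28 with the compared groups only, 132 with the replicate block and 36 without the haemoglobin-rich arrays. CCH in SAM/R-1 gave 17 with the stricter filter, 20 with the block and 139 with array weights. CCH averaged gave 3257 with no filter, 2437 with array weights and 370 without the haemoglobin-rich arrays. The interaction gave 17 with the stricter filter, the averaged strain difference 12060 with no filter, and the control-diet strain difference 2289 without the haemoglobin-rich arrays. Single arrays moved 3 of these counts by over 1.5 times. CCH in SAM/P-8 was 437, 72 and 73 without SAM/P-8 control replicates 1, 2 and 3, 113, 128, 82 and 94 without SAM/P-8 CCH replicates 1 to 4, 157 without SAM/R-1 control replicate 3, and 141 and 144 without SAM/R-1 CCH replicates 1 and 4. CCH in SAM/R-1 was 19, 11 and 2 without SAM/R-1 control replicates 1 to 3, and 14 and 8 without SAM/R-1 CCH replicates 2 and 3. CCH averaged was 2118, 346 and 303 without SAM/P-8 control replicates 1 to 3, 397 and 581 without SAM/P-8 CCH replicates 1 and 3, 541, 354 and 535 without SAM/R-1 control replicates 2 to 4, and 386, 402 and 550 without SAM/R-1 CCH replicates 1, 3 and 4. Signal over background limits only Sod3 and the third Prdx6 probe among the members.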
